A study of Homo sapiens with 15 samples.

Results

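The apolipoprotein L genes APOL1 to APOL6 are 6 neighbouring human genes on chromosome 22, and MPP8 binding at them was read from ChIP-seq peak lists of K-562 cells, which grow from a human leukaemia of the chronic myeloid type. The 6 genes were taken by symbol from 20037 protein-coding genes, with every peak that met a gene or the 10 kb on each side of it. This selected 3 of 427 peaks in TASOR KO cells and 0 of 264 peaks in TASOR2 KO cells. The family was chosen by its deposited peaks, with those values already known, so its peaks are a description and are given no test. Both samples came from a series of 15, with 1 library per genotype. The TASOR KO cells lacked TASOR, and the TASOR2 KO cells lacked its paralog TASOR2. Per the labels' protocols, knockouts were made with CRISPR/Cas9 from sorted single colonies, so each genotype may rest on a single clone, and cells then received an empty puromycin resistance vector or a FLAG-tagged transgene by lentivirus. Neither of the 2 labels names a transgene. Both libraries were precipitated with the same antibody to MPP8. Unedited cells, cells without MPP8 and input chromatin were not analysed here, so the signal that does not come from MPP8 was not measured.

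Apolipoprotein L proteins insert into membranes, and several of their genes are induced by interferon. APOL1 is the pore-forming serum protein that kills trypanosomes, and APOL3 disrupts the membranes of bacteria in the cytosol of interferon-treated cells. MPP8 is a chromodomain protein that binds methylated lysine 9 of histone H3 and belongs to the human silencing hub (HUSH), for which TASOR is a scaffold. HUSH silences LINE-1 retrotransposons and newly integrated DNA. The series asks how the TASOR and TASOR2 complexes relate in that silencing, and the comparison of the 2 knockouts at these genes asks where MPP8 was found when either paralog was absent.

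The 6 genes formed 2 groups along the chromosome. Positions are those of RefSeq on hg38, counted from 1. APOL6 (gene ID 80830, 35648446 to 35668404) and APOL5 (gene ID 80831, 35708424 to 35729483) were the lower-coordinate pair. APOL3 (gene ID 80833, 36140323 to 36166177), APOL4 (gene ID 80832, 36189128 to 36204833), APOL2 (gene ID 23780, 36226209 to 36239954) and APOL1 (gene ID 8542, 36253133 to 36267525) followed after a gap of 411 kb that held RBFOX2, a splicing factor gene. The group from APOL3 to APOL1 spanned 127 kb.

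In TASOR KO cells MPP8 peaks lay at APOL1, APOL2 and APOL3, and none lay within 10 kb of APOL4, APOL5 or APOL6. Thus 3 of 6 members had a peak (exact Clopper-Pearson 95% interval 11.8% to 88.2%), beside 1.34% of all protein-coding genes (268). The interval treats the genes as independent draws, which they are not, since they were chosen with this result known and lie side by side. For the same reasons neither the count nor the interval can be read as a test against that share. In TASOR2 KO cells none of these genes (0 of 6) had a peak within 10 kb, where 1.18% of all protein-coding genes (236) had one. The TASOR2 KO list had no peak on chromosome 22, so its count at these genes is 0 under every window and threshold. Replicate error could not be estimated from 1 library of each genotype, and no p-value was computed.

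**Figure D1:**
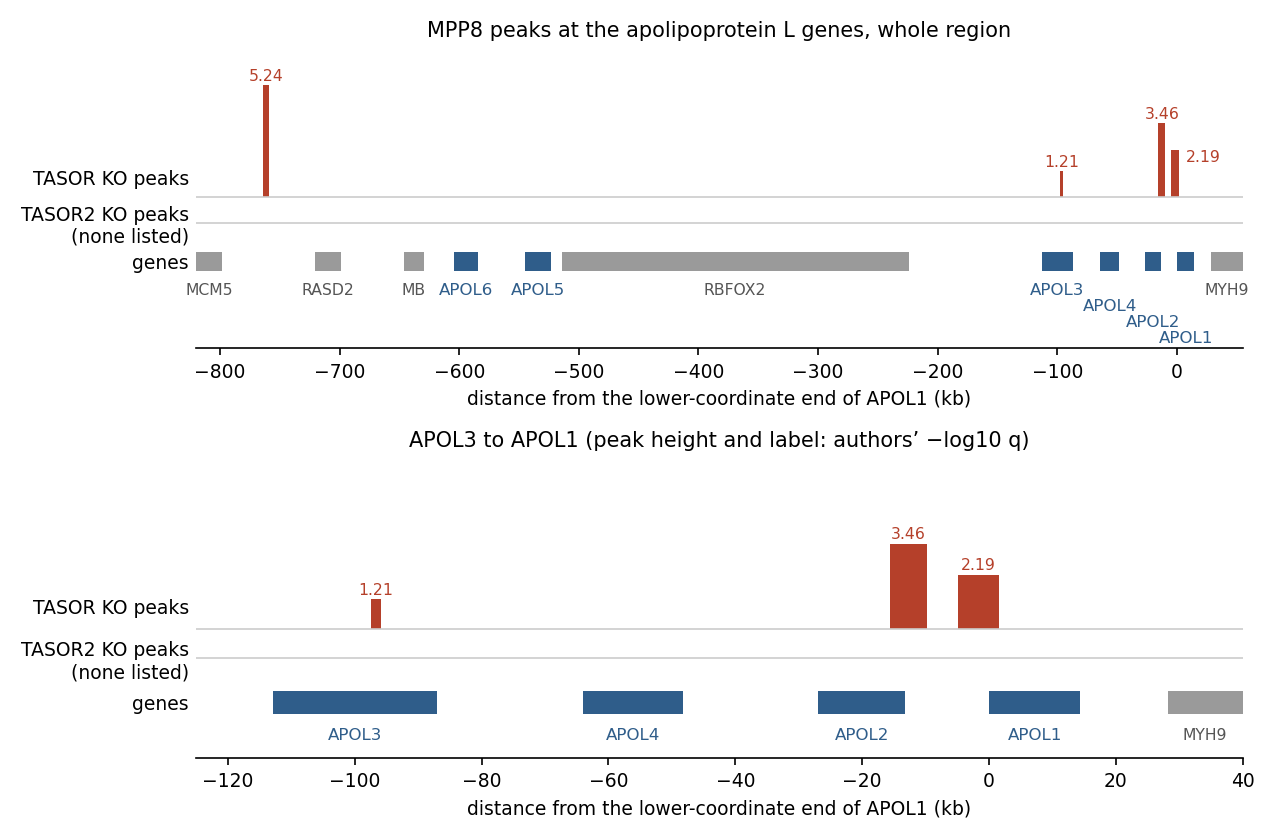
Peaks and genes along chromosome 22, as distance in kb from the lower-coordinate end of APOL1. Blue bars are apolipoprotein L genes, grey bars other protein-coding genes, and red bars TASOR KO peaks, with a height and a label that give the authors' −log10 q. The peaks at APOL2 (3.46) and APOL1 (2.19) face each other across the interval between those genes, the peak of 1.21 lies inside APOL3, and APOL4, APOL5 and APOL6 have none.

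The strongest of the 3 peaks was at APOL2, which encodes an intracellular family member. It ran from 36237595 to 36243363, a width of 5769 bp, and covered the upper-coordinate end of the gene. The authors' peak caller gave it a fold enrichment of 4.60, a −log10 p of 7.03 and a −log10 q of 3.46, which is a q of 3.50e-04. By −log10 q it ranked 39 of 427 TASOR KO peaks, and by width it also ranked 39. These values are the authors' own for each peak and serve here only to describe and rank peaks within their list.

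The second peak covered the lower-coordinate end of APOL1, from 36248227 to 36254641. Its width of 6415 bp ranked 29 of 427, its fold was 4.24 and its −log10 q was 2.19 (q 0.00645, rank 79). The list as a whole had a median width of 1929 bp and widths from 504 to 17390 bp, so both peaks were among its wide ones.

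APOL2 and APOL1 are known to be transcribed away from each other, so that the ends facing each other are their starts. The gene table used here gives no strand, so this is background and not a reading of the files. The centre of the APOL2 peak lay 0.525 kb beyond the upper end of APOL2, and the centre of the APOL1 peak lay 1.70 kb before the lower end of APOL1. Within 1 kb of a gene end, 2 of the 6 genes thus had a TASOR KO peak, where 0.679% of all protein-coding genes (136) had one. In the TASOR2 KO list, with no peak on chromosome 22, 0 of the 6 had one, where 0.200% of all genes (40) did.

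Most of both peaks lay outside the genes. APOL2 contained 2360 bp of its peak (40.9%) and APOL1 contained 1509 bp of its own (23.5%). The remaining 3409 bp and 4906 bp lay in the 13.2 kb between the genes, and together they covered 8.31 kb of it (63.1%). Among the 78 TASOR KO peaks that crossed a single end of a protein-coding gene, the median share inside the gene was 50.4% (quartiles 30.3 and 71.9). The APOL2 peak lay within these quartiles and the APOL1 peak below them. The table lists no other gene between APOL2 and APOL1.

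The uncovered stretch between the APOL2 and APOL1 peaks was 4.86 kb long. Of all TASOR KO peaks, 23 (5.39%), the APOL2 and APOL1 peaks among them, had another peak of the list at that distance or closer. The median distance to the nearest other listed peak on the same chromosome was 290 kb. The 3 peaks of the family spanned 98.9 kb from the first to the last base. The TASOR KO list held 31 runs of 3 successive peaks in a span of that length or shorter, this one included, and they took in 60 peaks (14.1%), so that closely set peaks also occurred elsewhere in the list. All these values rest on listed peaks only, and 3.62% of the TASOR KO peak numbers spanned were listed. Around the family the numbers were consecutive, so its spacing and that of the whole list are not alike in basis.

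The third peak lay wholly inside APOL3, from 36155768 to 36157237, at a width of 1470 bp. It began 15445 bp above the lower end of the gene and stopped 8940 bp below the upper end, so that it touched neither end. Its fold was 3.82 and its −log10 q was 1.21 (q 0.0620, rank 146), and its width ranked 276 of 427. It was the weakest and narrowest of the 3 peaks and the only one of them with a q above 0.05.

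**Figure D2:**
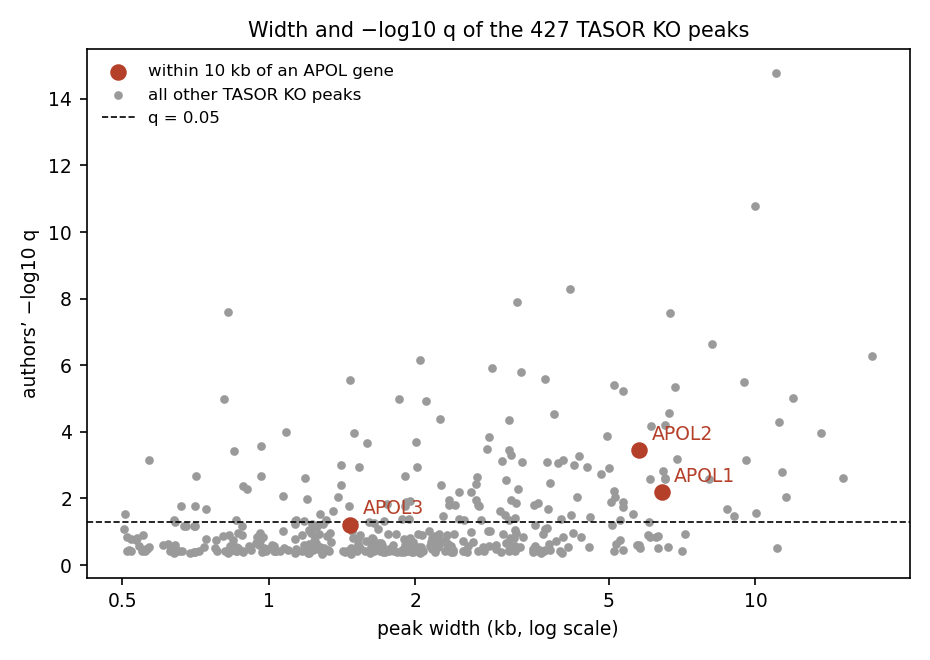
Width in kb on a log axis against the authors' −log10 q for the 427 TASOR KO peaks, with the 3 peaks at apolipoprotein L genes in red and q = 0.05 as a dashed line. The APOL2 and APOL1 peaks (5769 and 6415 bp) lie among the wide peaks above the line, and the APOL3 peak (1470 bp) lies just under it.

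With peaks of q 0.05 or less alone, 2 of the 6 genes, APOL1 and APOL2, had a TASOR KO peak within 10 kb, where 0.629% of all protein-coding genes (126) had one. The TASOR2 KO list had 0 of the 6, where 0.389% (78) of all genes did. Its counts here were fixed, as it has no peak on chromosome 22. In the whole TASOR KO list 138 peaks (32.3%) reached that q. With peaks of any q, 3 of the 6 gene bodies were met in TASOR KO, where 1.08% of all genes (216) were, and 0 of 6 in TASOR2 KO, where 0.858% (172) were.

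As a share of its body, APOL2 was covered most by listed peaks, with 17.2% in a TASOR KO peak, against 10.5% of APOL1 and 5.69% of APOL3. When the 10 kb on each side were included, 22.2% of the APOL2 window, 19.3% of the APOL1 window and 3.21% of the APOL3 window were covered. Peak numbers are missing beyond the APOL1 peak, which ends inside that gene, so both APOL1 shares may be too low. The windows of APOL2 and APOL1 overlap, and each met both wide peaks, although 231 bp of the APOL2 peak fell in the APOL1 window and 1728 bp of the APOL1 peak in the APOL2 window. The APOL1 peak lay 8.27 kb from APOL2, and the APOL2 peak lay 9.77 kb from APOL1, just inside the limit of 10 kb. The nearest peak outside the limit was the one inside APOL3, 31.9 kb from APOL4.

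The members without a TASOR KO peak lay at different distances from one. APOL4, about which less is known than about APOL1, sat between the APOL3 and APOL2 peaks in an uncovered stretch of 80.4 kb. APOL6, whose product is reported to promote apoptosis when overproduced, was 154 kb from the nearest peak. APOL5 was 214 kb from it. APOL5 and APOL6 both lay in an uncovered stretch of 661 kb that ended at the APOL3 peak. The number of members with a TASOR KO peak stayed at 3 for windows of 0 to 30 kb, was 4 at 50 and 100 kb with APOL4, and was 5 at 200 kb with APOL6. The share of all protein-coding genes grew over the same windows, from 1.08% at 0 kb to 5.64% at 200 kb.

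**Figure D3:**
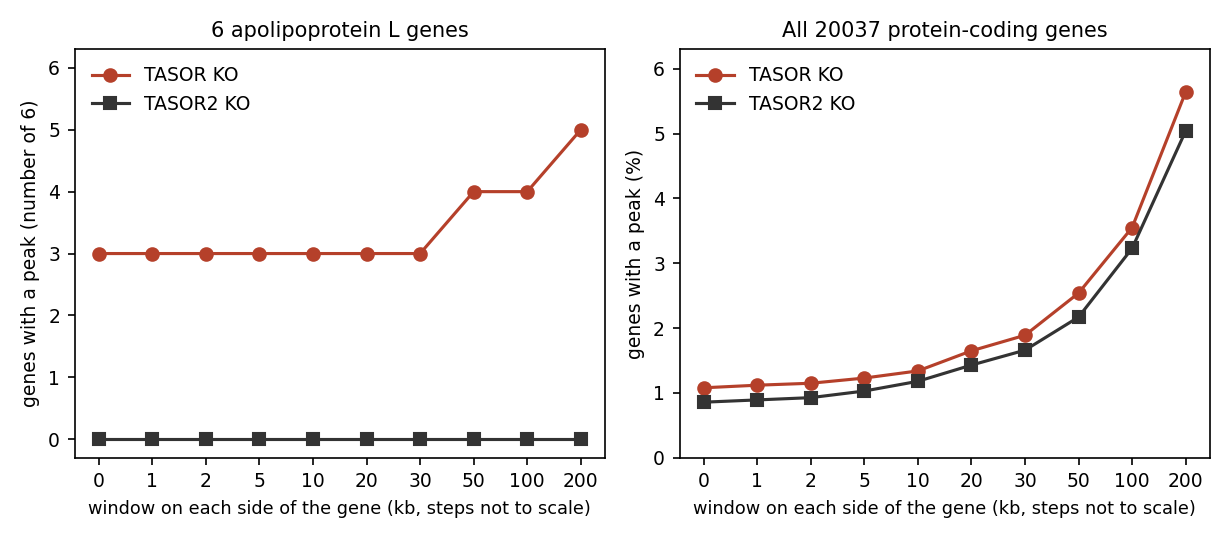
Genes with a peak against the window on each side of the gene in kb, as the number of the 6 apolipoprotein L genes (left) and as the percentage of all 20037 protein-coding genes (right), with TASOR KO as circles and TASOR2 KO as squares. In TASOR KO the family stays at 3 genes up to 30 kb and reaches 5 at 200 kb. In TASOR2 KO it stays at 0, as that list has no peak on chromosome 22.

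Members with and without a peak did not separate by length. The 3 genes with a peak were 25855 bp (APOL3), 13746 bp (APOL2) and 14393 bp (APOL1) long, and the 3 without were 15706 bp (APOL4), 21060 bp (APOL5) and 19959 bp (APOL6) long, so that the ranges overlapped. By spacing, APOL1 and APOL2, the pair with the wide peaks, were also the closest neighbours, at 13.2 kb. The distance to the nearest other member was 22.9 kb for APOL3, which had a peak, and 21.4 kb for APOL4, which had none. It was 40.0 kb for APOL5 and APOL6. These are values of 6 neighbouring paralogs and were not tested.

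The numbering of the peaks bears on how an absent peak can be read. Peak names carry numbers that rose with position in both lists, with gaps, so the lists are parts of longer numbered lists. The TASOR KO peaks 7169 to 7173 on chromosome 22, from 32136370 to 36254641, were consecutive. They include the 3 peaks of the family, so no numbered TASOR KO peak was missing from the list at APOL4, APOL5 or APOL6, if the numbers follow position throughout. Between the APOL1 peak and the first peak of chromosome 3, 31 numbers were not in the list, so the side of APOL1 towards MYH9 cannot be read in this way.

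The TASOR2 KO list had no peak anywhere on chromosome 22, and it also had none on chromosomes 14, 15, X and Y. The TASOR KO list had none on chromosomes 1, 13 and Y. The shares over all protein-coding genes include the genes of such chromosomes. The TASOR2 KO numbers passed from 965 on chromosome 21 to 984 on chromosome 3, and the 18 numbers between them were not in the list. Whether any of these lay at an apolipoprotein L gene is unknown. The 0 of 264 TASOR2 KO peaks (exact Clopper-Pearson 95% upper bound 1.39%), like the 3 of 427 TASOR KO peaks (0.703%, 0.145 to 2.04), therefore describes the deposited peaks and not MPP8 occupancy. Peak names carried a different tag in each list, 0.5 in TASOR KO and 0.3 in TASOR2 KO. TASOR KO peaks had a q of up to 0.460 and TASOR2 KO peaks of up to 0.258, each below the number in its tag, and a difference in threshold or in selection cannot be told apart from the genotype. The depth of the libraries is unknown, and the intervals cover counting error only.

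On the rest of chromosome 22 the TASOR KO list had 4 further peaks. Of 451 protein-coding genes on the chromosome, 5 had a peak within 10 kb (1.11%), and the 2 that were not apolipoprotein L genes were CLTCL1, which encodes a clathrin heavy chain, and C22orf42. The nearest peak below the family lay at 35489078 to 35494426, was 5349 bp wide, had a fold of 5.71 and a −log10 q of 5.24, and ranked 17 of 427. It lay outside any annotated gene and 34.0 kb from MCM5, which encodes a subunit of the replicative helicase.

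The genes around the family were counted too. Within 500 kb of it the table listed 39 other genes, of which 1, the pseudogene TRMT112P8, had a TASOR KO peak within 10 kb, the peak of rank 17, at 7.20 kb. None of the 13 protein-coding genes among the 39 had one. The nearest on either side were MB, which encodes myoglobin and was 112 kb from a peak, and MYH9, which encodes a non-muscle myosin heavy chain and was 26.6 kb from the APOL1 peak. Peak numbers are missing beyond the APOL1 peak, so the lack of a peak at MYH9 and the genes past it cannot be read as absence. RBFOX2, between APOL5 and APOL3, was 127 kb from the nearest peak. In the TASOR2 KO list 0 of the 39 had a peak within 10 kb, a count fixed by its lack of any peak on chromosome 22. With 13 protein-coding genes, the TASOR KO count of 0 does not stand apart from the 1.34% of all such genes. The TASOR2 KO share over all such genes was 1.18%. Most of the 39 are not protein-coding, and no share over all annotated genes is given beside them.

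Genes related to the family by name or by function were counted in the same windows. Of 19 other apolipoprotein genes, among them APOA1, APOB and APOE and the distant relative APOLD1, 0 had a peak within 10 kb in either list. The 3 genes listed in connection with the trypanosome lytic particle of APOL1, HP, HPR and APOA1, also had 0. Of 14 genes for interferon receptors and signalling, 1 had a TASOR KO peak, IRF2 (fold 3.93, q 0.0118), which encodes an interferon regulatory factor. In TASOR2 KO 1 of the 14, the kinase gene JAK2, had peaks (q 0.0670 and 0.0847). Beside the shares over all protein-coding genes, 1.34% in TASOR KO and 1.18% in TASOR2 KO, lists of these sizes are too short for such counts to set them apart. Of the 14 and of the 19, 1 gene each lies on chromosome 1, which has 0 peaks in the TASOR KO list. In the TASOR2 KO list chromosome X, with 2 of the 19, and chromosome 14, with 1 of the 14, have 0 peaks. The counts of 0 at these genes were thus fixed.

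Other gene families with interferon-induced members were set beside the apolipoprotein L genes, by lists chosen with earlier results known. Induction and tandem position were not checked for each listed gene. Over 11 families and 37 genes, 16 genes in 7 families had a TASOR KO peak within 10 kb, where 1.34% of all protein-coding genes did, and 0 had a TASOR2 KO peak, where 1.18% did. With 37 genes the count of 0 does not stand apart from 1.18%. Beside the 3 of 6 apolipoprotein L genes, all 5 IFIT genes, which encode RNA-binding antiviral proteins, and all 4 genes of the SP100 nuclear body family had a TASOR KO peak within 10 kb. IFIT1B was counted through the peak at IFIT1, 4957 bp away, and SP110 and SP140 were met by the same peak. One or both members had a peak in the pairs SAMD9 and SAMD9L, DDX60 and DDX60L, HERC6 and HERC5 (at HERC6) and MX1 and MX2 (at MX1), and PARP14 had one in its group. The strongest of these by −log10 q lay at HERC6 (rank 5) and DDX60 (rank 9), and the weakest at MX1 (rank 424). The GBP, OAS, IFI44 and TRIM5 families had none. The 7 GBP and 2 IFI44 genes are on chromosome 1, which has 0 peaks in the TASOR KO list, so their counts of 0 cannot be read as absence. At the other genes without a peak the missing peak numbers were not examined, so their counts describe the listed peaks only. The difference between families was not tested.

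The wide form of the APOL2 and APOL1 peaks was also seen at some of these families. Widths were 5769, 6415 and 1470 bp at APOL2, APOL1 and APOL3, against 639 to 11327 bp (median 2954) for the 16 TASOR KO peaks of the other families. Peaks of similar width lay at SP140L (6077 bp) and DDX60L (5131 bp), and wider ones at SAMD9 (11327 bp) and SP100 (10049 bp). By −log10 q the apolipoprotein L peaks ranked 39, 79 and 146, within the range of the other 16, which ranked from 5 to 424 (median 117.5).

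**Figure D4:**
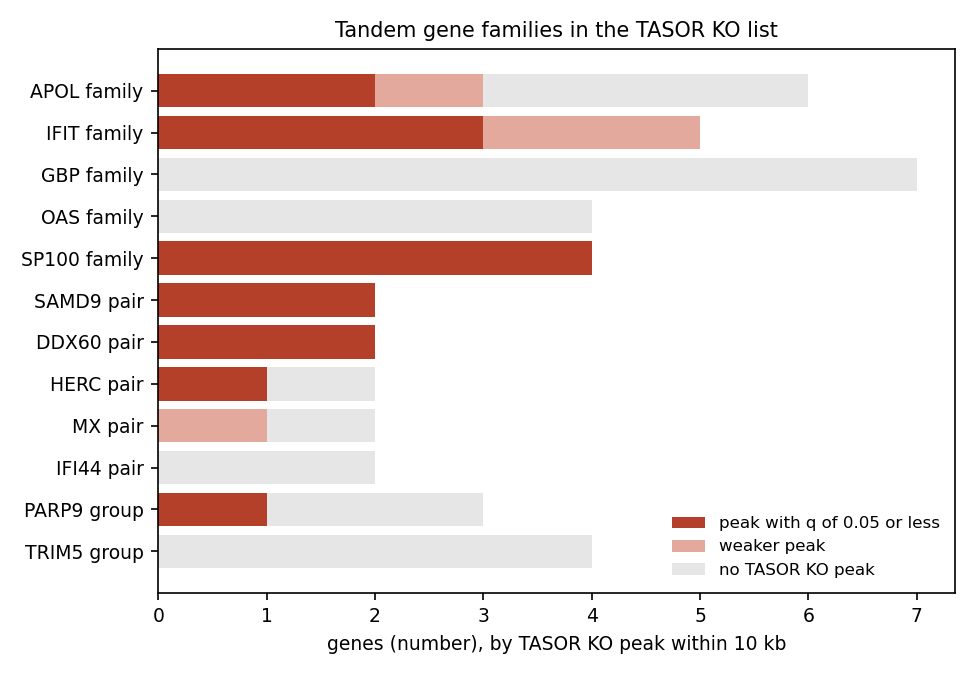
Number of genes per family with a TASOR KO peak of q 0.05 or less within 10 kb (dark red), with weaker peaks only (light red) or with none (grey). The 6 apolipoprotein L genes are at the top and 11 other families with interferon-induced members below. The apolipoprotein L family has 2 genes in dark red, 1 in light red and 3 in grey. All 5 IFIT and all 4 SP100 family genes have a peak within 10 kb, some through a shared peak.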

How the data were processed

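MPP8 ChIP-seq peak lists of 2 K-562 samples, grouped by their titles, were used, and the other 13 samples were not used here. The submitters' processing notes name the aligner Bowtie2 2.3.5.1, the peak caller MACS2, deepTools, and the genomes hg38 and mm9. Neither the control library nor the handling of the mouse spike-in is stated in the labels or files. The peak names hold a tag (0.5 for TASOR KO, 0.3 for TASOR2 KO) whose meaning is not stated, and no calling threshold is named outright. The deposited lists have no header and follow the column order of MACS2 broad peaks, with 1 list per sample. Their fold enrichment (a ratio), −log10 p, −log10 q and score are the authors' values, and each score is 10 times the −log10 q, cut to a whole number. Replicates, depth and a p-value for any comparison were not to be had.

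Genes came from a RefSeq table of GRCh38.p14, matched by symbol only (6 of 6), since APOL3 is also an older synonym of APOL2. The table has no strand or exons, so the planned count at promoters became the count within 1 kb of either gene end. The planned promoter sequences, motifs and protein identities were not analysed here. A single shared bp counted as overlap, and this count was tested on simulated peaks. The naming rule took the 6 members, neighbours within 500 kb with a peak or nearest on each side, and list members with a peak. CLTCL1, C22orf42, MCM5, RBFOX2 and list members with no peak were named outside it, after their values were seen. One listed gene is not reported here. The members and lists were chosen with earlier results of these data known. Alternatives were windows of 0, 1, 5 and 50 kb, a q of 0.05, a common q of 0.258, the top 50% of each list by score (213 and 132 peaks) and an overlap of 50%. Tools were pandas 2.3.3, numpy 2.4.6, matplotlib 3.10.9 and scipy 1.17.1 under Python 3.11.15.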

Additional observations from a re-analysis of the deposited data

How the results depend on the processing

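Of 20 alternative counts for TASOR KO, 17 equalled the main count and 3 differed, all within 1.5 times of it. With q of 0.05 or less the members with a peak were 2 and the peaks near them 2, in place of 3 and 3, since the APOL3 peak had a q above 0.05. With a window of 50 kb the members were 4. The count at gene ends stayed at 2 under each of its alternatives, and both of its peaks had a q below 0.05. All 3 peaks meet a gene body, so windows below 10 kb could not lower the counts. Their ranks of 39, 79 and 146 and q of at most 0.0620 place all 3 within the common q and the top 50%. Most of the equal counts thus follow from these values. All 20 alternative counts for TASOR2 KO were 0 and could not move, as that list has no peak on chromosome 22. No paired analysis was possible because the knockouts have a single library each, and none could be left out. The depth behind the peaks is unknown.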

Other observations

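The share of numbers that reached the deposited lists was low, while the numbers from below APOL6 to the peak at the lower end of APOL1 were complete. The TASOR KO peak numbers spanned 11786 numbers, of which 427 (3.62%) were listed, and the TASOR2 KO numbers spanned 1512, of which 264 (17.5%) were listed. These spans run from the lowest to the highest listed number, 1612 to 13397 in TASOR KO and 1 to 1512 in TASOR2 KO. Any TASOR KO numbers below 1612 are thus left out of its share, so the 2 shares are not alike in basis. Consecutive numbers made up 83 of 406 adjacent pairs of TASOR KO peaks on the same chromosome (20.4%) and 147 of 245 pairs of TASOR2 KO peaks (60.0%). The 5 peaks numbered 7169 to 7173, with the 3 at APOL3, APOL2 and APOL1 among them, formed 1 of 5 TASOR KO runs of 5 or more consecutive numbers, and these runs held 29 peaks. How peaks were selected for the deposited lists was not tested.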
